A study of Mus musculus with 2 samples.

Results

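Semaphorins, their plexin and neuropilin receptors and the cytoplasmic proteins that act below them were described in RNA-seq profiles of sorted cells from cooled mouse embryonic brain. Members were the table rows whose gene name is that of a class 3 to 7 semaphorin, a plexin, a neuropilin, a plexin domain containing gene, a collapsin response mediator protein (CRMP; Crmp1 and the Dpysl genes) or a MICAL enzyme. The rule found 41 rows of the 15643 listed, under 40 gene names, because Mical3 stands in 2 rows. They comprised all 20 semaphorins of these classes in the mouse, 8 plexins, both neuropilins, both Plxdc genes, 5 CRMP genes and 4 MICAL rows. Plxnb3 was not analysed here.

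Both groups were CD-1 mouse embryos whose cortex received plasmid by in utero electroporation at embryonic day 13. The plasmid was a control in one group and an RBM3 knockdown plasmid in the other, RBM3 being an RNA-binding protein that cold induces. In both groups maternal hypothermia was induced at embryonic day 14, so no uncooled cells stand beside them. GFP-positive cells, labelled as neural stem cells, were sorted at embryonic day 15, and each group gave 1 library from 100 ng of RNA. How many embryos or litters went into a library is not given in the sources used here.

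Semaphorins are guidance cues, secreted in class 3 and bound to the membrane in classes 4 to 7. Most bind plexins, receptors whose cytoplasmic part switches off small GTPases of the R-Ras and Rap type, while most secreted semaphorins need a neuropilin as the binding partner of an A-type plexin. In the developing cortex these cues steer axons, the radial migration of new neurons and the entry of interneurons, and several members also act in blood vessels. CRMPs bind tubulin and carry the signal to microtubules, and MICALs are enzymes that oxidise actin and take filaments apart.

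The libraries held 17757555 control reads and 16823612 knockdown reads over listed genes, and members took 0.878% and 1.03% of them. Rbm3 itself had 3242 and 2397 reads, 84.1% of the control level (95% counting interval 79.8% to 88.7%), so the library labelled knockdown is called so on the strength of its label. The label of neural stem cells was checked against markers. Summed over 12 radial glia markers, genes of cortical stem cells, the level was 1139 and 566 RPKM, control first, and over 14 projection neuron markers 2827 and 2534 RPKM. Markers of progenitors and of neurons were thus both present, and 10 of the 12 radial glia markers had log2 ratios below 0. In bulk RNA, fewer cells of a type and less RNA per cell cannot be told apart. Levels below are the authors' RPKM, which correct for gene length, and differences are log2 ratios of knockdown over control on CPM scaled with TMM factors. On that CPM scale the projection neuron sum went the other way, at 7619 under control and 8298 under knockdown. Fold differences of single genes are on reads scaled with the same TMM factors. They are therefore not ratios of the RPKM values printed beside them, which carry no TMM factor. A gene was called measured at a mean of at least 5 CPM, and higher or lower at a 2-fold difference. With 1 library a group no test across conditions is possible, and each interval covers counting error only.

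Of the 41 member rows 37 were measured, and 3 of these were higher in the library labelled knockdown, 1 was lower and 33 lay between. Plxna4, Plxna2 and Sema6d were the 3 higher genes and Mical2 was the lower one. Among all 12140 measured genes, 2.13% were higher and 4.51% lower by the same rule. The members' median log2 ratio was 0.18 (quartiles -0.06 and 0.68), and that of all measured genes was 0.03 (quartiles -0.30 and 0.32). Of the measured members 27 lay above 0, or 73.0%, against 53.1% of all measured genes. The shift was smaller after a correction for transcript length, described further on, with medians of 0.0689 for members and 0.0072 for all measured genes. After that correction 22 of the 37 measured members lay above 0, or 59.5%, against 50.8% of all measured genes.

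**Figure D1:**
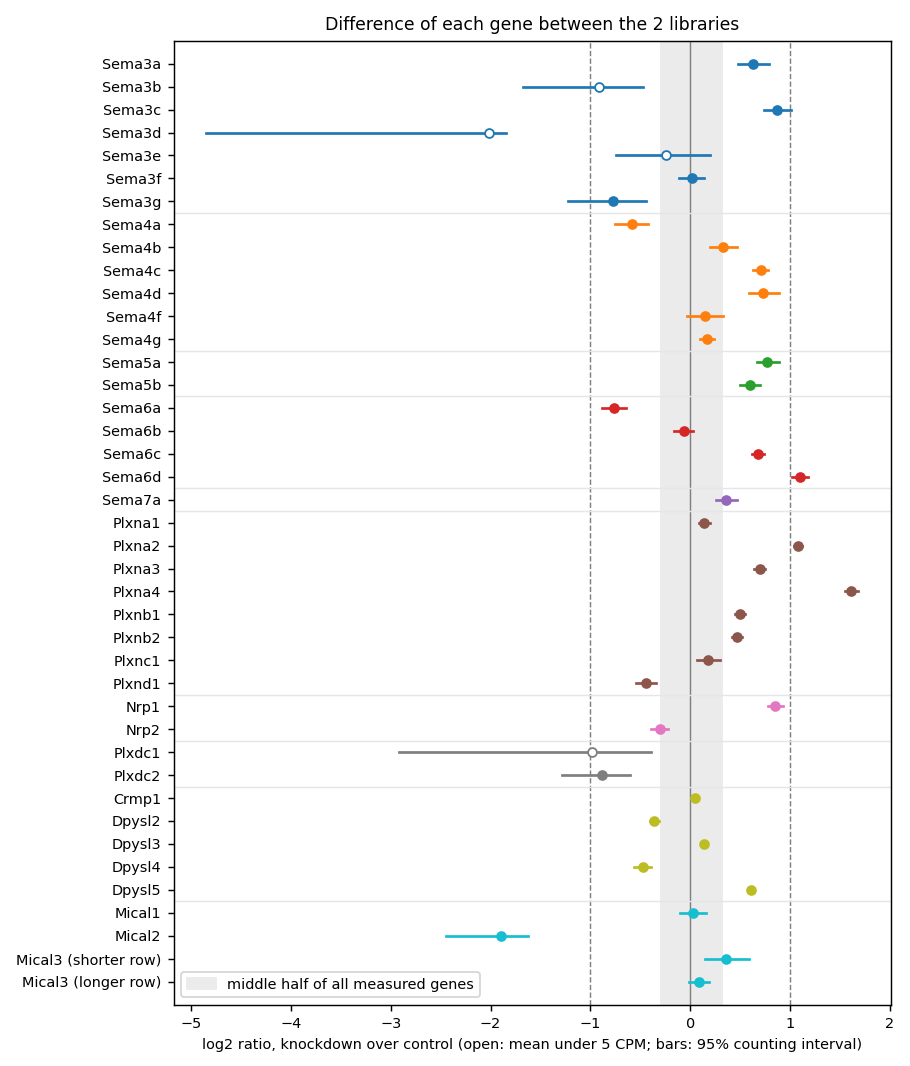
The log2 ratio of knockdown over control (horizontal axis) is drawn for each member row, coloured by family, with points on CPM plus a pseudocount of 0.5, bars for the 95% counting interval without it, and open points for means under 5 CPM. Dashed lines mark 2-fold and the grey band the quartiles of all measured genes (-0.30 to 0.32); Plxna4 stands farthest to the right and Sema3d farthest to the left.

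The sequences just upstream of the RefSeq starts of 3 of the 4 genes past 2-fold are shown because promoter sequence lies there. Which start these libraries use was not tested, and the Plxna2 stretch lies inside the span that GENCODE M21 gives that gene. Each is the 250 bases before the start on the gene's strand in GRCm38.p6, with CpG dinucleotides in capitals. Plxna2 is at chr1:194619579-194619828, Sema6d at chr2:124089719-124089968 and Mical2 at chr7:112225586-112225835, all on the plus strand.
Plxna2: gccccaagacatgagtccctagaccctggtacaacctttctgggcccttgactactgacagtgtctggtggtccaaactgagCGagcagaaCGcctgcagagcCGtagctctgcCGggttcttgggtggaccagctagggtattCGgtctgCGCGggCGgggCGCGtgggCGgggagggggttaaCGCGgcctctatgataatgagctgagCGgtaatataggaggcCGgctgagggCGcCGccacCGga
Sema6d: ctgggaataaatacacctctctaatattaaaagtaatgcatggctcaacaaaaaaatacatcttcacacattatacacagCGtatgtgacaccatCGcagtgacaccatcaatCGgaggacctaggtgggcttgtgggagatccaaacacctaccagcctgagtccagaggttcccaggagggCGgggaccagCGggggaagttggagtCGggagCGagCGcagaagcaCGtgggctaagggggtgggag
Mical2: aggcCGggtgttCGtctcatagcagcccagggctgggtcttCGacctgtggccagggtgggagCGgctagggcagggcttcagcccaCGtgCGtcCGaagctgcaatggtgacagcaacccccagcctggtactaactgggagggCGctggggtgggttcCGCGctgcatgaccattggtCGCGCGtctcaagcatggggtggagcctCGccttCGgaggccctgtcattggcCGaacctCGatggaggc
The Plxna2 stretch holds 18 CpG and the Mical2 stretch 17, while the Sema6d stretch holds 9, against a median of 6 over the 32851 starts in the RefSeq table. Sema6d has a second listed start farther into the gene, with 6 CpG. In all, 30 member genes matched the table, with 43 starts and a median of 13 CpG. Searched on both strands, GGAATG, the core of the sites that TEAD factors bind, was in 12.6% of all stretches and in 3 of the 43 of members (those of Plxnb1, Plxnd1 and a start of Sema4a). CAGATG, an E-box bound by neurogenic factors, was in 14.4% of all and 3 of the members' stretches (Mical3, Sema3c and another start of Sema4a). TGAGTCA, the site of AP-1 factors, was in 4.46% of all and in 2 of the members' stretches, of Sema4c and Sema6b. None of these 3 motifs occurs in the sequences printed here.

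The plexins, the signalling receptors of the family, were measured in 8 genes, of which 2, Plxna4 and Plxna2, were past 2-fold and higher under knockdown, with 6 between. Their median log2 ratio was 0.48, and 7 of 8 were above 0, as were 53.1% of all measured genes. After the length correction the median was 0.31, Plxna1 was below 0 and Plxna4 alone was past 2-fold. The A-type plexins, receptors for class 3 and class 6 semaphorins, differed most. Plxna4 (ENSMUSG00000029765.10, chromosome 6, 32144268 to 32588192, minus strand, positions here and below from GENCODE M21 on GRCm38), a receptor for Sema3A and class 6 semaphorins, had 2352 control reads and 6343 knockdown reads. Its level was 11.8 and 33.6 RPKM, and on TMM-scaled reads it was 3.07-fold higher (2.93 to 3.22). That log2 ratio of 1.61 lay above those of 99.5% of measured genes. In the authors' deposited table Plxna4 had p = 0.0158 (FDR 0.322), from a test that assumes the spread between replicates. An antisense transcript, Plxna4os3, overlaps 0.78% of its exonic bases and had 33 and 125 reads.

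Plxna2 (ENSMUSG00000026640.6, chromosome 1, 194618218 to 194816869), a receptor for Sema6A that acts in neuronal migration and lamination, had 7238 and 13432 reads, more than any other plexin in either library. Its level was 27.0 and 52.8 RPKM. On TMM-scaled reads it was 2.11-fold higher (2.05 to 2.17), a call lost with library totals, with upper-quartile factors and after the length correction. Plxna3, on the X chromosome and known as a receptor for Sema3F, was 1.62-fold higher (1.56 to 1.69), at 32.8 and 49.4 RPKM. Plxna1, which serves both secreted semaphorins and Sema6D, had nearly equal levels of 36.8 and 37.7 RPKM. Its log2 ratio of 0.14 became -0.05 after the length correction, and 10.7% of its exonic bases are shared with the antisense gene Gm26811. The members of this subfamily were thus not shifted by one common amount. Within a library, where no scaling enters, Plxna4 stood at 0.320 of the Plxna1 level under control and at 0.890 under knockdown. That is a change by a factor of 2.78 (counting interval 2.62 to 2.95). The pair, with the highest and the lowest log2 ratio of the subfamily, was picked after the values were seen.

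The B-type plexins, receptors for class 4 semaphorins, differed by less and by like amounts. Plxnb2, whose level of 49.7 RPKM was the highest of the plexins in the control library and which is known from neural progenitors, reached 63.8 RPKM under knockdown, with a log2 ratio of 0.47. Plxnb1, the receptor for Sema4D, had 32.2 and 42.2 RPKM and a log2 ratio of 0.50. Plxnc1, the receptor for Sema7A, had 8.91 and 9.38 RPKM and a log2 ratio of 0.18. Plxnd1, best known from endothelial cells and also made by some cortical neurons, was the 1 plexin below 0. It had 16.5 and 11.2 RPKM, 1.36-fold lower (1.27 to 1.46). Over the 8 plexins the summed level was 216 and 300 RPKM, and the A-type plexins gave 108 and 174 of these.

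**Figure D2:**
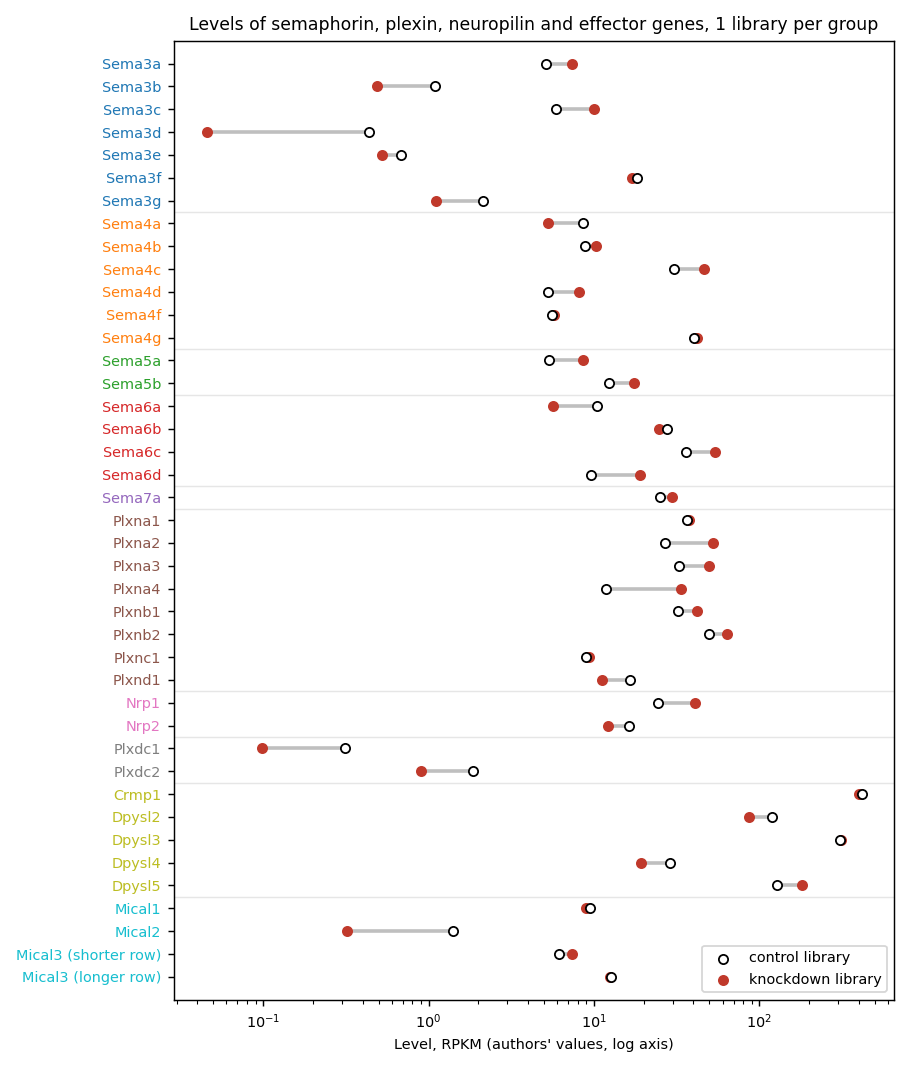
Levels in RPKM (authors' values, log axis) are drawn for each member row, with open points for the control and filled points for the knockdown library, and gene names coloured by family. CRMP genes stand highest, with Crmp1 at 416 and 400 RPKM, plexins mostly lie between about 10 and 60 RPKM, and Sema3d and Plxdc1 stand lowest.

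The neuropilins, the ligand-binding partners of A-type plexins, differed in opposite directions, both by less than 2-fold. Nrp1 (ENSMUSG00000025810.8, chromosome 8, 128358604 to 128503363), which binds Sema3A and also the growth factor VEGF, had 2562 and 4076 reads. Its level was 24.4 and 41.0 RPKM, 1.81-fold higher (1.72 to 1.90). Nrp2 (ENSMUSG00000025969.9, chromosome 1, 62703285 to 62818695), the receptor for Sema3F that keeps interneurons out of the striatum, had 2738 and 1949 reads, or 16.2 and 12.2 RPKM, 1.23-fold lower (1.16 to 1.31). The ratio of Nrp1 to Nrp2 was therefore 1.51 under control and 3.37 under knockdown, a change by a factor of 2.23 (2.07 to 2.41) that does not depend on the scaling between libraries. Nrp1 is also abundant in blood vessels, whose markers were lower in the library labelled knockdown. Of 11 measured endothelial markers 8 were lower, 0 were higher and the median was -1.67, while the log2 ratio of Nrp1 was 0.85. The part of vessel cells in the Nrp1 value was not tested.

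The secreted class 3 semaphorins were spread over a wide range. Sema3f, a repellent that works through Nrp2, was the most abundant, at 18.2 and 17.1 RPKM, with a log2 ratio of 0.01 whose sign depends on the scaling. Sema3c, an attractive cue for cortical axons, had 748 and 1207 reads, 5.89 and 10.04 RPKM, 1.84-fold higher (1.67 to 2.01). Sema3a, the classic repellent that also orients migrating cortical neurons, had 592 and 809 reads, 5.15 and 7.42 RPKM, 1.56-fold higher (1.40 to 1.73). Of the summed class 3 level Sema3f made up 54.2% and 46.5% and Sema3c 17.5% and 27.4%, control first. Sema3g, a ligand of Nrp2 made by endothelial cells, went the other way with 172 and 85 reads, 1.78-fold lower (1.36 to 2.33). The remaining class 3 genes had means under 5 CPM and are given by their reads. Sema3d (ENSMUSG00000040254.7, chromosome 5, 12383385 to 12588948) had 51 control reads and 5 knockdown reads, 8.96-fold lower with a wide counting interval of 3.60 to 28.8. Sema3b had 83 and 35 reads, and Sema3e, the ligand of Plxnd1, had 92 and 67. In the authors' deposited table Sema3d had p = 0.000499 with an FDR of 0.0325, the 1 member with an FDR under 0.05, where 1.88% of all listed genes had one. With the 3 sparse genes included the median of class 3 was -0.24, and it was 0.32 over the 4 measured ones, so no direction is given for the class.

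Lower markers of cells that surround or supply the cortex stood beside Sema3d and Sema3g. Summed over 12 meningeal fibroblast markers, the level was 1050 CPM and 97.1 CPM, control first, with 10 of 10 measured genes lower and a median of -3.72. Summed endothelial markers were 417 and 164 CPM, and pericyte and mural markers 216 and 103 CPM, with 4 of 8 lower and a median of -1.25. Choroid plexus markers summed to 653 and 22.3 CPM, with 4 of 5 lower. None of these lists held a listed gene at 0 reads in either library. A sort for GFP after electroporation of the cortex would be meant to remove such cells. Their part in the low values of Sema3d, Sema3g, Plxnd1, Plxdc1, Plxdc2 and Mical2 was not tested.

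Class 4 semaphorins, membrane proteins that signal mainly through B-type plexins, were measured in 6 of 6 genes, 5 of them above 0 and 0 past 2-fold. Sema4g (40.2 and 41.9 RPKM) and Sema4c (30.5 and 46.2 RPKM), both ligands of Plxnb2, were the most abundant. Sema4c was 1.63-fold higher (1.55 to 1.72), whereas Sema4g had a log2 ratio of 0.17. Sema4d, the ligand of Plxnb1 that is also known from immune cells as CD100, was 1.67-fold higher (1.5005 to 1.85), at 5.28 and 8.17 RPKM. Sema4a was the 1 gene of the class below 0, with 822 and 480 reads, 1.505-fold lower (1.34 to 1.69). Sema4b and Sema4f had log2 ratios of 0.33 and 0.14. For the pairs just named, Sema4c and Sema4g with Plxnb2 and Sema4d with Plxnb1, each partner was above 0, as were 53.1% of all measured genes. Sema4a (-0.58) was not paired here and lay below 0, while Plxnb1 and Plxnb2 lay above it. In class 6, Sema6d (1.10) and its receptor Plxna1 (0.14) were both above 0, though Plxna1 was at -0.05 after the length correction. Sema6a (-0.76) lay below 0, and its receptors Plxna2 (1.08) and Plxna4 (1.61) lay above it.

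Class 5 semaphorins, which carry thrombospondin repeats outside the cell, were both above 0. Sema5b had 1557 and 2073 reads, a level of 12.4 and 17.4 RPKM and a log2 ratio of 0.60. Sema5a had 1030 and 1554 reads, a level of 5.36 and 8.54 RPKM and a log2 ratio of 0.77. Sema7a, the member held to the membrane by a lipid anchor, had 24.96 and 29.8 RPKM and a log2 ratio of 0.36.

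Class 6 semaphorins, transmembrane ligands of A-type plexins, differed in both directions. Sema6d (ENSMUSG00000027200.11, chromosome 2, 124089969 to 124667770), a ligand of Plxna1, had 1799 control reads and 3394 knockdown reads. Its level was 9.58 and 19.1 RPKM. On TMM-scaled reads it was 2.15-fold higher (2.03 to 2.27), a call lost with library totals and after the length correction. Sema6a (ENSMUSG00000019647.10, chromosome 18, 47235598 to 47368870, minus strand), the ligand of Plxna2 and Plxna4, had 1622 and 838 reads, or 10.4 and 5.67 RPKM, 1.70-fold lower (1.56 to 1.85). In the control library both genes thus stood at nearly one level, with Sema6d at 0.922 of Sema6a, and in the knockdown library Sema6d stood 3.37-fold above Sema6a. That is a change in their ratio by a factor of 3.65 (3.30 to 4.05), the largest of 6 pairs of members set side by side, which were chosen after their values were seen. Sema6a itself lay between the thresholds, with a log2 ratio of -0.76. Sema6c, the most abundant of the class, had 36.2 and 53.8 RPKM and a log2 ratio of 0.68, and Sema6b had 27.8 and 24.7 RPKM and a log2 ratio of -0.06.

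The Plxdc genes encode transmembrane proteins that share a short domain with plexins and are known from tumour vessels, without being plexins themselves. Plxdc2 had 229 and 105 reads, a level of 1.85 and 0.90 RPKM and a log2 ratio of -0.89. After the length correction it passed 2-fold, at -1.05. Plxdc1 had 27 and 8 reads, under the minimum.

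CRMP genes were the most abundant members, with a summed level of 1000.4 and 1001.5 RPKM, which carry no TMM factor, or 4742 and 5264 TMM-scaled CPM. Crmp1 (416 and 400 RPKM) and Dpysl3 (307 and 314 RPKM), both abundant in young neurons, had log2 ratios of 0.05 and 0.14. The other CRMP genes differed in both directions. Dpysl5, which encodes CRMP5, had 15681 and 21003 reads, 128 and 182 RPKM, 1.52-fold higher (1.49 to 1.56). Dpysl2 encodes CRMP2, the mediator through which Sema3A collapses growth cones. It had 9649 and 6615 reads, 120 and 86.9 RPKM, 1.28-fold lower (1.24 to 1.32). Dpysl4, which encodes CRMP3, was 1.39-fold lower (1.31 to 1.47), at 28.9 and 19.3 RPKM. The ratio of Dpysl5 to Dpysl2, a pair also picked after the values were seen, went from 1.07 to 2.09. The family's median of 0.05 was -0.06 with library totals, and also below 0 with upper-quartile factors and after the length correction, so it has no direction of its own.

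Of the MICAL genes only Mical2 was past 2-fold. Mical2 (ENSMUSG00000038244.7, chromosome 7, 112225856 to 112413106), whose actin-oxidising product also acts in the nucleus on serum response factor, had 287 control reads and 62 knockdown reads. Its level was low in both, 1.40 and 0.32 RPKM, and it was 4.07-fold lower (3.08 to 5.44). The log2 ratio of -1.89 lay below those of all but 0.98% of measured genes. In the authors' deposited table its p-value was 0.00417 and its FDR 0.137. Mical1, at 9.47 and 8.96 RPKM, had a log2 ratio of 0.03, though 14.97% of its exonic bases overlap the opposite-strand gene Smpd2. Both Mical3 rows were near 0 or above it. The longer one, which GENCODE M21 keeps under this name, had 1660 and 1550 reads and a log2 ratio of 0.09, and the shorter one, which it does not hold, had 317 and 360 reads and a log2 ratio of 0.36.

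By the authors' threshold in the series' design text, a p-value below 0.05 with a log2 fold change above 1 in size, their deposited table held 3 members, Plxna4 higher and Sema3d and Mical2 lower. That threshold took 1.82% of all listed genes as higher and 6.05% as lower. Plxna2 and Sema6d, past 2-fold here, had p-values of 0.103 and 0.0962 in the authors' deposited table.

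Transcript length moved with these results. Over all measured genes the median log2 ratio was -0.19 in the shortest of 5 equal length classes and 0.20 in the longest. Members are long: 18 of the 37 measured ones were in the longest class and 0 in the shortest. After a lowess curve of log2 ratio on length was subtracted, Plxna4 stayed past 2-fold at 1.42, while Plxna2 was at 0.87 and Sema6d at 0.90. Mical2, also among the longest, was at -2.09. Sema6a, Plxnd1 and Nrp2, with log2 ratios below 0, are in the longest class too, as are all 3 higher genes. What length stands for in these libraries was not tested.

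**Figure D3:**
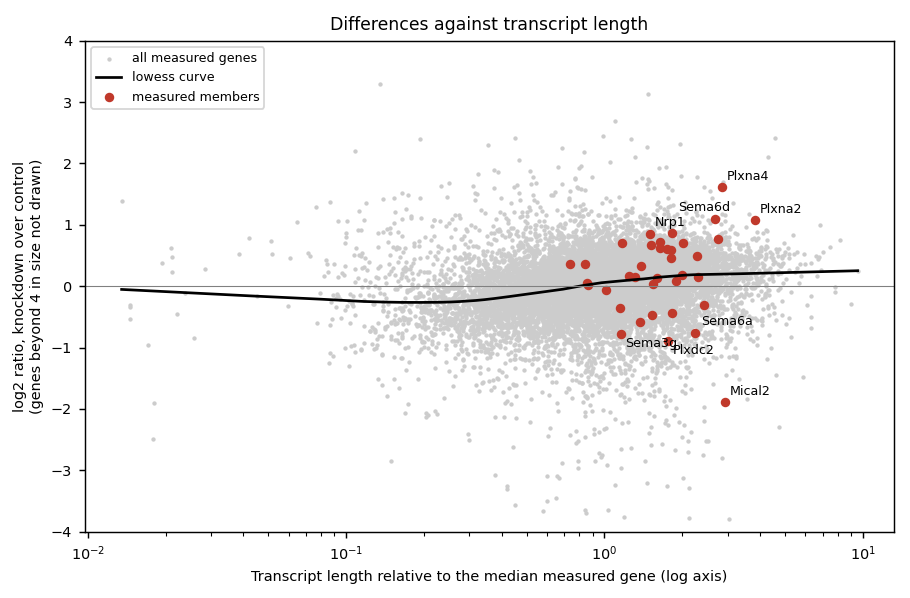
The log2 ratio (vertical axis) is drawn against transcript length relative to the median measured gene (log axis) for all measured genes in grey and measured members in red, with the lowess curve in black; 20 genes beyond 4 in size are not drawn. Most members lie in the right part of the plot, with Plxna4 far above the curve and Mical2 far below it. Some, such as the shorter Mical3 row, are shorter than the median measured gene.

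Other genes of semaphorin signalling were taken from lists of 64 genes, of which 63 were listed and 54 measured. Of these 2 were higher, 4 were lower and 48 lay between, with a median of 0.0085. Among 13 measured co-receptors and receptor partners, 1 was higher and 1 lower, and their median of 0.14 fell below 0 with a minimum of 1 CPM or none. Cntn2, an adhesion protein of axons that takes part in the Sema3A response, had 11549 and 31156 reads, 68.1 and 194 RPKM, 3.07-fold higher (3.005 to 3.14). L1cam, the partner of Nrp1 in that response, had 46.6 and 48.4 RPKM. Itga1, the integrin chain through which Sema7A acts, had 169 and 66 reads, 2.25-fold lower (1.68 to 3.04).

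Of 7 R-Ras and Rap genes, the GTPases that plexins switch off and a regulator of theirs, 1 was lower. That was Rras, with 149 and 59 reads, 2.22-fold lower (1.63 to 3.05). Of 7 measured kinases of CRMPs and their activators 1 was higher, with a median of 0.52. Dyrk2, which primes CRMPs for phosphorylation, had 504 and 894 reads and sat at the 2-fold line with a log2 ratio of 1.00. Gsk3b, the kinase that acts after priming, had a log2 ratio of 0.87, and Cdk5r1, the p35 activator of Cdk5, one of 0.69. The other 3 of the 7 lay below 0: Cdk5r2 at -0.81, Cdk5 itself at -0.28 and Gsk3a at -0.03. Under the alternatives the median of this list was 0.25 at its lowest.

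VEGF ligands and receptors, which share neuropilins with the semaphorins, were below 0 in 4 of 4 measured genes, with a median of -0.58. Among all measured genes 53.1% lay above 0. Vegfa at -0.06 and Vegfb at -0.17 had counting intervals that included no difference, and Flt1 was at -0.997. Kdr, the endothelial VEGF receptor, had 1302 and 565 reads, 2.03-fold lower (1.83 to 2.24). Kdr and Flt1 are themselves among the endothelial markers given above. Of 3 measured MICAL-like genes and enzymes that reverse MICAL oxidation, Micall2 was lower, with 156 and 54 reads, 2.54-fold (1.85 to 3.53), and the other two lay between.

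Markers of cortical cell types moved beside the members as well. Intermediate progenitor markers, of the transit cells that radial glia produce, were above 0 in 8 of 9, with 3 higher and a summed level of 816 and 1341 CPM. Projection neuron markers had 3 higher and 2 lower of 14, a median of 0.35 and sums of 7619 and 8298 CPM, with Gap43, a growth cone protein, at -1.51. Radial glia markers were below 0 in 10 of 12, with 3 lower and sums of 2619 and 1678 CPM. Cajal-Retzius markers had 3 of 7 lower and a median of -0.66, and interneuron markers 2 higher and 2 lower of 11 and a median of 0.15. Oligodendrocyte precursor markers had 1 of 5 lower (Pdgfra, -1.22) and a median of 0.12 that was -0.06 after the length correction. Microglia and macrophage markers had 2 of 8 higher (Lyz2, 1.83, and Ptprc, 1.67), 1 lower (Mrc1, -2.29) and a median of 0.17. With a minimum of 20 CPM, which leaves only Csf1r (0.19) and Lyz2 of this list, the median was 1.01. Erythroid markers were lower in 6 of 6 measured genes. How much of the members' differences goes with these shifts in cell types was not tested.

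**Figure D4:**
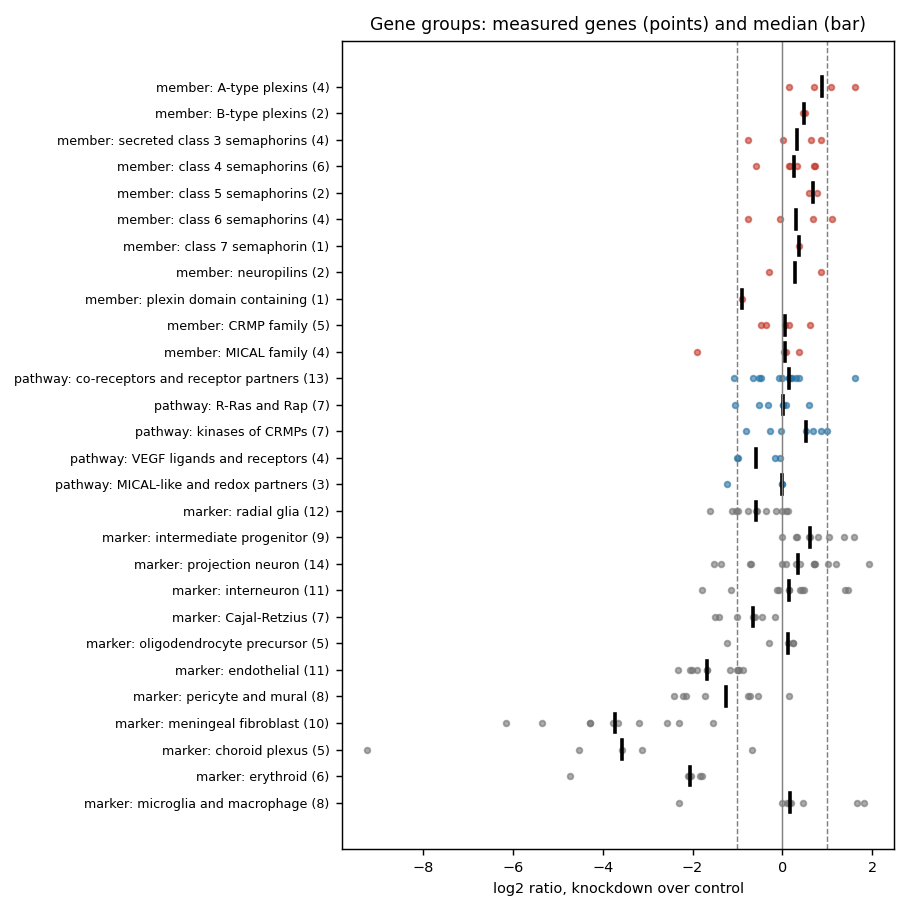
The log2 ratio of knockdown over control (horizontal axis) is drawn for measured genes (points) of the member families, 5 pathway lists and the marker lists. Plxnc1 (0.18) and Plxnd1 (-0.44) are not drawn. A black bar marks each list's median, brackets hold the number of measured genes, and dashed lines mark 2-fold. A-type plexins lie to the right of 0, most pathway genes lie within 2-fold, and meningeal and choroid plexus markers lie far to the left.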

How the data were processed

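Of the 2 libraries, 1 came from each group, so no test across conditions was made and no replicate was averaged. The submitters' processing notes list TopHat2 2.0.12, then Bowtie 1.0.1, and also HTSeq 0.6.0, without saying what each did. Genome build, annotation and strand use: not given in the sources used here. Both libraries have raw read counts per gene and RPKM in the deposited table, per the file headers. It also holds the authors' log2 fold change and their p-value and FDR. Genes under 18 reads over both libraries are not listed. The authors' deposited p-values were regenerated by the edgeR exact test (TMM scaling, dispersion preset at 0.1) to within 4.55e-15, so the spread between replicates is assumed in them.

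From the counts, CPM was computed by edgeR 4.0.16 using TMM factors of 1.04 (control) and 0.963 (knockdown). The log2 ratio used a pseudocount of 0.5 CPM, which understates differences of genes with few reads. Fold differences and their 95% intervals came from the split of reads between libraries (exact Clopper-Pearson, no pseudocount), and those of a pair of members from a conditional odds ratio. These cover counting error only, and copies made by PCR make them too narrow. The calculation was tested on simulated counts that held counting error only, with equal numbers of genes set higher and lower. The simulation had no spread between replicates and no length trend, so it could not test how these affect the values. Alternatives were 3 other scalings (library totals, upper-quartile factors, DESeq2 1.42.0 size factors), 2 pseudocounts, 3 minimums, 2 fold thresholds, a length correction (lowess, span 0.3, length from reads per RPKM) and the authors' fold change. Use of a single Mical3 row was added after the data were seen. Positions came from GENCODE M21 by gene ID (40 of 41 rows found) and upstream sequences from RefSeq (GRCm38.p6); the build of the files is not stated. All members were named; of each pathway list the genes past 2-fold or else the 2 most abundant, and of marker lists up to 3 genes. L1cam, Gsk3b, Gsk3a, Cdk5, Cdk5r1, Cdk5r2, Vegfa, Vegfb, Flt1 and Csf1r fall outside this rule and were chosen with values known. Members and lists were chosen with earlier results of these data known. The values of 1 pathway list and 1 marker are not reported here.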

Additional observations from a re-analysis of the deposited data

How the results depend on the processing

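No paired analysis was possible because each group has 1 library, and for the same reason no library could be left out. Of 41 member rows 35 kept one sign under 7 alternatives of scaling, pseudocount, length and fold source, and 6 did not (Sema3f, Plxna1, Crmp1, Dpysl3, Mical1 and the longer Mical3 row). The 3 members higher became 1 (Plxna4) with library totals, 2 with upper-quartile factors (without Plxna2) and 1 with the length correction, 13 at a 1.5-fold and 1 at a 3-fold threshold. The 1 member lower became 2 with the length correction (with Plxdc2), 2 with no minimum and 2 with a minimum of 1 CPM (with Sema3d), 0 with a minimum of 20 CPM, which drops Mical2, and 4 at 1.5-fold. Their median of 0.18 was 0.0728 with library totals, 0.0869 with upper-quartile factors, 0.0689 with the length correction and 0.33 with a minimum of 20 CPM. Library totals moved the median of all measured genes from 0.03 to -0.07. Over all genes, the 259 higher and 547 lower became 506 and 1384 with no minimum, 429 and 1176 at 1 CPM, 143 and 153 at 20 CPM, 1108 and 1504 at 1.5-fold, and 59 and 185 at 3-fold. With library totals the split was 187 higher and 693 lower, and with upper-quartile factors 194 and 672. A single Mical3 row changed no count of members and left their median at 0.17. Depth limits Sema3d, Plxdc1, Sema3b and Sema3e most, with 5 to 67 reads in the knockdown library. RPKM levels in the authors' table use no TMM factor.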
